A study of Mus musculus with 40 samples.

Results

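The step described is that of aggregates of mouse embryonic stem cells from day 3 to day 4 after XAV939, the first day without the inhibitor. The members are 8 of the 40 libraries of the series, the 4 labelled XAV939 at day 3 and the 4 so labelled at day 4, chosen by label with no measured value used. The cells were CGR8, an embryonic stem cell line of strain 129. They were aggregated in serum-free N2B27 medium with Activin-A, Fgf2 and KSR, conditions that all groups shared, and the submitters call the result EPI aggregates. XAV939 was present from 0 to 72 h, so the day 3 libraries mark the end of the treatment and the day 4 libraries the day that followed it. Untreated aggregates of both days, with 4 libraries each, serve for comparison, and their labels alone say that no matrigel was used, so matrigel and the inhibitor cannot be told apart in a difference between the arms. All libraries came from 1 cell line, and whether replicates were separate cultures is not given, so p-values measure the spread between libraries, which may be technical in part.

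Tankyrases modify Axin, the scaffold of the complex that marks β-catenin for destruction, and so promote the breakdown of Axin. XAV939 inhibits tankyrases, which stabilises Axin and lowers signalling through β-catenin and its TCF/LEF partners. In the early embryo this pathway is known for its part in the primitive streak and the caudal end of the axis, and cells kept from it tend towards anterior neural fates. Many of its target genes, such as Axin2, Nkd1, Notum and Dkk1, code for inhibitors of the pathway itself.

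The 8 libraries held between 31274764 and 40426373 counts. Transcripts of the mitochondrial genome took 1.98 to 5.46% of the counts at day 3 and 1.28 to 3.44% at day 4, and of 10 tested mitochondrial genes 1 fell (mt-Atp6) and 0 rose. That number was 3 without day 3 library 1, 2 without day 4 library 4, 0 without day 3 library 4 or day 4 library 1 or 3 and with the filter of 5 CPM, and 4 and 5 with a replicate block in the 8 and in all 40 libraries. Among the day 4 libraries, 2 and 3 lay closest to each other, with a chi-square of 10.9 per gene. The other 5 pairs lay between 66.5 and 128, the highest being that of libraries 1 and 4. Levels are given as CPM, the counts of a gene per 1000000 counts of the library after scaling, for libraries 1 to 4 in that order or as mean ± SD of 4 libraries. A gene was called, and is said to have risen or fallen, at a Benjamini-Hochberg adjusted p below 0.05 in the edgeR quasi-likelihood test over 16878 genes.

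The labelled identity, aggregates derived from embryonic stem cells, was checked on genes of pluripotent cells and of other cell types. Pou5f1 (Oct4), the pluripotency factor of the epiblast, stood at 848, 709, 897 and 759 CPM at day 3 and at 502, 815, 912 and 412 CPM at day 4 (log2 fold change -0.28, SE 0.58, adjusted p 0.737). The de novo DNA methyltransferase Dnmt3b had 1844 ± 318 CPM and 2057 ± 696 CPM. Both were well detected in all 8 libraries, their days overlapped, and neither passed the test. Fgf5, a ligand of the formative epiblast, had 105 ± 8.46 and 80.5 ± 15.7 CPM, and the anterior epiblast factor Otx2 205 ± 36.9 and 152 ± 29.8 CPM, also uncalled. Other epiblast markers were lower at day 4: Cdh1 fell, and Utf1 was lower in every day 4 library without a call. Their values are given below. Markers of other cell types were also present in part. The summed level of 8 tested and 2 untested visceral endoderm genes was 11.2 to 18.5 CPM at day 3 and 20.4 to 35.5 CPM at day 4, with 1 called (Dab2, higher), and that of the 8 trophectoderm genes 14.2 to 19.3 and 2.80 to 5.25 CPM. The 7 two-cell-stage genes found summed to at most 0.241 CPM in any of these libraries, with 2 to 6 of them at 0. The 9 germ cell genes summed to 47.0 to 72.4 CPM and then 20.4 to 37.7 CPM, the 7 feeder fibroblast genes to 50.6 to 70.9 and 31.0 to 55.9 CPM. Of the feeder genes 2 rose and 0 fell, with a median log2 fold change of 0.63, so the calls went against the sum. Over the settings run 1 to 3 of them rose and 0 to 2 fell. Of all genes 20.3% rose and 17.7% fell. A change of a transcript in whole aggregates does not tell fewer cells of a type from less RNA per cell.

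Across all genes, 3428 of 16878 (20.3%) rose and 2984 (17.7%) fell, 38.0% in all. The median log2 fold change was 1.04 among the genes that rose, -0.86 among those that fell and 0.037 over all genes. Rises reached further than falls: 1784 genes rose and 1301 fell by a log2 of at least 1, and 372 rose and 73 fell by at least 3. Of the 372, 323 had a mean below 1 CPM at day 3, and 47 of the genes that rose had 0 counts in all day 3 libraries. The day 3 and day 4 libraries did not overlap for 33.9% of the genes tested, with 18.1% higher and 15.8% lower at day 4. The plot of fold change against level shows the long upper tail at low levels and falls that extend to genes of high CPM at the right.

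**Figure D1:**
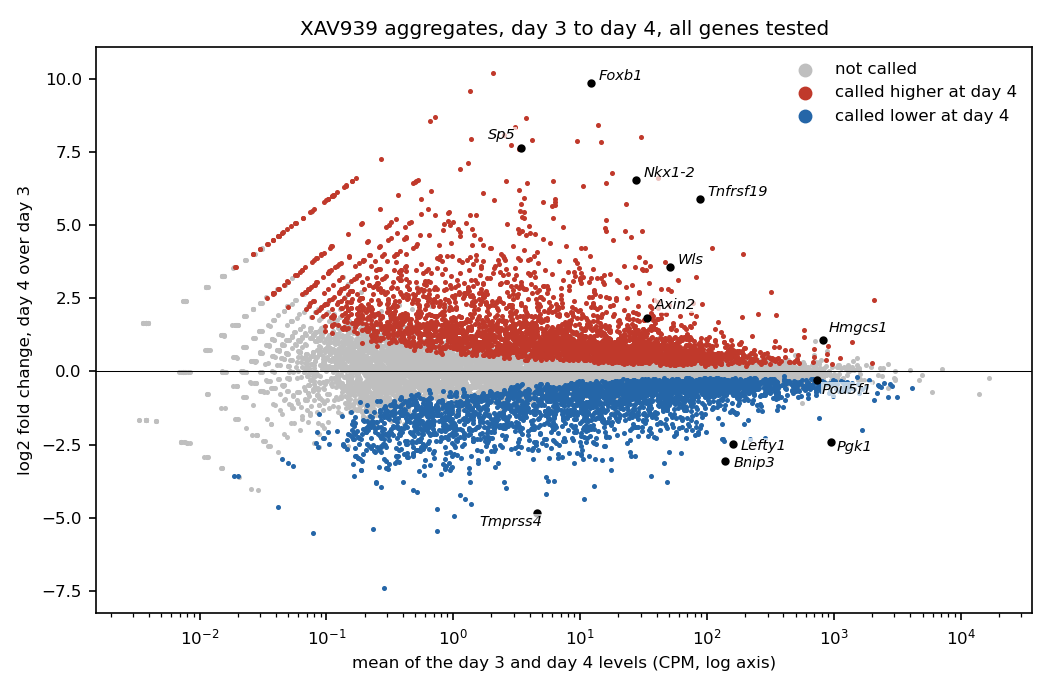
Each point is 1 of the 16878 genes tested, with the mean of its day 3 and day 4 levels (CPM, log axis) on the x axis and its log2 fold change, day 4 over day 3, in XAV939 aggregates on the y axis; red and blue points were called higher and lower. Foxb1 at 9.84 and Tmprss4 at -4.83 are the highest and the lowest of the genes named in the plot, while Pou5f1 at -0.28 was not called.

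Most measured targets of β-catenin and TCF/LEF, many of them feedback inhibitors, rose in this step. Of 21 tested members 13 rose and 2 fell, with a median log2 fold change of 1.80, against 20.3% higher and 17.7% lower of all genes and the median of 0.037. Axin2 (chromosome 11, 108920349 to 108950783, mm10), an inhibitor widely read as a report of the pathway, went from 16.4, 21, 12.9 and 9.15 CPM at day 3 to 80.4, 47, 34.7 and 48.8 CPM at day 4 (log2 fold change 1.82, SE 0.31, adjusted p 2.13e-05). Every day 4 library lay above every day 3 library, and library 1 was the highest at day 4. Tnfrsf19 (Troy), a receptor of the TNF family and a Wnt target, had 1.52, 3.34, 5.42 and 1.32 CPM at day 3 and 248, 108, 76.9 and 261 CPM at day 4 (log2 fold change 5.90, SE 0.42, adjusted p 8.45e-13). Here libraries 1 and 4 were the lowest at day 3 and the highest at day 4. Sp5 (chromosome 2, 70474923 to 70477729), a zinc finger factor that represses Wnt targets in turn, stood at 0.0266, 0, 0.0913 and 0 CPM and then at 14.3, 3.72, 1.18 and 7.85 CPM (log2 fold change 7.64, SE 1.05, adjusted p 5.35e-07). That value was 8.94 without day 3 library 3, which held 3 of the 4 day 3 counts, and 6.97 without day 4 library 1.

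The promoters of Sp5 and Tnfrsf19 are shown because both hold the TCF/LEF motif searched, CTTTGAT or its reverse complement ATCAAAG, which stands in capitals. Windows run from 250 bases before to 50 bases after a RefSeq start (GRCm38.p6) and are written in the direction of the gene. Sp5 is on the plus strand at chr2:70474673-70474972, and the Tnfrsf19 window at chr14:61037938-61038237 on the minus strand belongs to a start inside the annotated gene (chromosome 14, 60963875 to 61046490).
Sp5: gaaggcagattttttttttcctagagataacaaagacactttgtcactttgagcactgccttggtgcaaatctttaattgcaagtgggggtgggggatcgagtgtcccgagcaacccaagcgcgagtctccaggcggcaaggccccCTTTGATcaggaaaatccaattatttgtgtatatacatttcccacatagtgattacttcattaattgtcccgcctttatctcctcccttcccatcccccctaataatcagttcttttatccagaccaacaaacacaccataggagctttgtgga
Tnfrsf19: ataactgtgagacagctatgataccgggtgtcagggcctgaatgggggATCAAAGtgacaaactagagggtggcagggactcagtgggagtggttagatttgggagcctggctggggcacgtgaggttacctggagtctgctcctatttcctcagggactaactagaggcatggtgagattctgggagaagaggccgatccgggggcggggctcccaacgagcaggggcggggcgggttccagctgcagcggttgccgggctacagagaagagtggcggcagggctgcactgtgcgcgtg
The motif was in 3.18% of the 12836 tested genes with a window, in 3.60% of those that rose, in 2.62% of those that fell and in 3 of 13 genes of the Wnt target list, the third being Amotl2, whose level was 75.9 and 68.3 CPM and which was not called. A match is a description of these letters and not a binding site.

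The other members moved by steps of different size. The zinc finger factor Sp8 rose from 1.09 ± 0.307 to 30.9 ± 15.4 CPM (log2 fold change 4.81, SE 0.34, adjusted p 6.67e-13), and Nkd1, which binds Dishevelled, from 3.36 ± 0.547 to 22.3 ± 11.4 CPM (log2 fold change 2.73, SE 0.36, adjusted p 3.28e-07). Dkk1, a secreted antagonist of the co-receptors Lrp5 and Lrp6, stood at 0.16, 0.241, 0.0609 and 0.11 CPM at day 3 and 14.9, 4.79, 1.41 and 5.24 CPM at day 4. Its log2 fold change of 5.48 (adjusted p 4.33e-07) was 4.68 without day 4 library 1, the highest. Notum, which removes the lipid of Wnt proteins, Lgr5, a receptor for R-spondins, and Zfp703 rose by 2.5, 1.80 and 2.22 on the log2 scale. The ubiquitin ligases Znrf3 and Rnf43, which clear Frizzled receptors, rose by 0.69 (SE 0.16) and 0.97 (SE 0.27), with Lef1 the smallest rises of the list. Bambi, a pseudoreceptor that also dampens BMP signals, and Ascl2 fell, by 0.80 and 1.53. Not called were Tcf7 (109 ± 30.6 and 83.9 ± 18.8 CPM), Ccnd1 (261 ± 30.7 and 234 ± 12.6 CPM), Nkd2, Apcdd1, Cdx1 and Amotl2.

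T and Lef1 had the highest adjusted p-values of the targets that rose. T (Brachyury), the transcription factor of the primitive streak, had 0.825, 0.932, 0.883 and 0.622 CPM at day 3 and 2.59, 7.8, 3.17 and 7.03 CPM at day 4 (log2 fold change 2.64, SE 0.90, adjusted p 0.0195). The groups did not overlap, libraries 2 and 4 being the higher pair at day 4, and without day 3 library 4 the adjusted p was 0.0503. Lef1, a DNA-binding partner of β-catenin, had 21.4, 19.3, 42 and 16.6 CPM and 45.3, 50.9, 46.6 and 33.7 CPM, with day 3 library 3 inside the day 4 range. Its call (log2 fold change 0.83, SE 0.33, adjusted p 0.0426) was lost with relative log expression scaling (adjusted p 0.0558), with no filter (0.0852) and without any one of day 3 libraries 1, 2 and 4 or day 4 libraries 1, 2 and 3 (0.0745 to 0.161).

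Of 19 tested genes for Wnt ligands 10 rose and 0 fell, with a median of 1.88, beside 20.3% of all genes that rose and 17.7% that fell. Wnt8a, a ligand of the early streak and caudal epiblast, stood at 2.24, 4.6, 4.66 and 3.11 CPM at day 3 and 28.7, 78.3, 46.4 and 64.6 CPM at day 4 (log2 fold change 3.90, SE 0.72, adjusted p 5.36e-05). Its day 4 libraries lay all above its day 3 libraries, with library 1 the lowest on both days. Wnt5a, a ligand that acts largely without β-catenin, had 0.373, 0.993, 1.4 and 0.11 CPM and then 8.12, 5.7, 5.68 and 5.09 CPM (log2 fold change 3.07, SE 0.40, adjusted p 1.69e-07). Wnt1, which marks the midbrain and the dorsal neural tube, had 0 counts in all 4 day 3 libraries and 9.14, 0.305, 0.0576 and 7 CPM at day 4, at least 177.5-fold higher when day 3 is set at a floor of 3 counts for its 4 libraries together (adjusted p 0.00276). Libraries 1 and 4 carried nearly all of its day 4 counts, and in a fit of the 8 libraries alone the adjusted p was 0.0609. Its fitted log2 fold change, which is no bound, was 10.20, or 9.45 without day 4 library 1. Wnt2b had 2 counts in all at day 3 and 146 at day 4, a ratio of 72.1-fold (95% counting interval 19.6 to 601). Its adjusted p was 6.48e-06.

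Wnt10b, next to Wnt1 on chromosome 15, had 0.0266, 0.511, 0.243 and 0.22 CPM and 6.1, 0.762, 0.346 and 4.9 CPM, and day 4 library 3 lay within the day 3 range. It rose by 3.59 (SE 0.79, adjusted p 0.00047), by 4.20 without day 3 library 2 and by 2.99 without day 4 library 1. Wnt3a, a ligand of the caudal epiblast, was low on both days, at 0.0266, 0.0301, 0.0609 and 0 CPM and 1.65, 0.274, 0.202 and 1.16 CPM. Its call (log2 fold change 4.6, SE 1.69, adjusted p 0.0301) was lost with no filter, without any one day 3 library and without day 4 library 1 or 4 (adjusted p 0.0564 to 0.0958), and the log2 fold change was 4.0 without day 4 library 1. Wnt3, the ligand known for starting the streak, had 3.41, 2.32, 1.52 and 2.05 CPM and 4.96, 6.62, 3.6 and 5.06 CPM, higher in every day 4 library but not called (log2 fold change 1.12, SE 0.57, adjusted p 0.124). The number of ligands that rose was 6 without day 3 library 2 or without day 4 library 1, 7 with no filter and 4 among genes of at least 5 CPM in 4 libraries, which fewer ligands reached.

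Both named genes that cells need to send Wnt proteins rose. Porcn, the acyltransferase that puts the lipid on Wnt proteins, had 1.23, 2.17, 2.31 and 1.72 CPM at day 3 and 11.8, 23.2, 13.1 and 15 CPM at day 4 (log2 fold change 3.09, SE 0.25, adjusted p 1.01e-11). Wls, the carrier that takes them to the cell surface, had 8.76, 7.73, 7.21 and 8.05 CPM and then 122, 49.4, 41.6 and 163 CPM (log2 fold change 3.56, SE 0.30, adjusted p 3.62e-11). For both genes no day 4 library overlapped day 3, and Wls had libraries 1 and 4 highest at day 4. They belong to a list of 37 tested receptors and secreted regulators. Of these 16 rose and 2 fell (Lgr4 and Shisa3), with a median of 0.46, beside 20.3% and 17.7% of all genes. Ror2, a receptor for Wnt5a, rose from 1.54 ± 0.401 to 43.8 ± 11.8 CPM (log2 fold change 4.81, SE 0.28, adjusted p 1.47e-14). The secreted antagonists Frzb and Sfrp1 rose as well, Frzb from 0.133, 0.0301, 0.152 and 0.183 CPM to 42.3, 14.8, 10.9 and 48.5 CPM (log2 fold change 7.85, SE 0.59, adjusted p 2.11e-12) and Sfrp1 from 17.1 ± 2.9 to 83.3 ± 44.5 CPM (log2 fold change 2.28, SE 0.34, adjusted p 2.19e-06). Rspo3, an R-spondin that enhances Wnt signals, rose from 0.213 ± 0.0421 to 6.25 ± 1.18 CPM (log2 fold change 4.85, SE 0.53, adjusted p 8.61e-09). Lgr4, an R-spondin receptor, fell from 253 ± 30.1 to 94 ± 16.6 CPM (log2 fold change -1.43, SE 0.23, adjusted p 7.35e-06), opposite to Lgr5.

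Of 25 tested genes of the inhibitor's own targets and of the destruction complex 6 rose and 1 fell, with a median of 0.14, beside 20.3% and 17.7% of all genes. The number that fell was 3 without day 3 library 4, where the median was 0.07, and also 3 with relative log expression scaling, with the filter of 5 CPM or with DESeq2. It was 2 without day 3 library 2 or 3 or day 4 library 2 or 3. With all libraries the one that fell was the tankyrase Tnks2, at 806, 782, 743 and 859 CPM at day 3 and 581, 569, 607 and 673 CPM at day 4 (log2 fold change -0.39, SE 0.10, adjusted p 0.0015), with no overlap between the days. The other tankyrase, Tnks, had 198 ± 36.8 and 190.2 ± 10.5 CPM. Axin1 (90.9 ± 12.7 and 95.2 ± 11.9 CPM), the scaffold, and Apc (174 ± 59.1 and 236 ± 18 CPM), another scaffold, were not called. Neither were the kinase Gsk3b (117 ± 19.9 and 151 ± 11 CPM) and Ctnnb1, the β-catenin gene (means of 1338 and 1408 CPM). These are transcript levels, and the Axin and β-catenin proteins were not measured. Besides Axin2, the genes that rose included Tcf7l2, a DNA-binding partner of β-catenin (log2 fold change 1.36, SE 0.16, adjusted p 5.05e-08), and the co-activators Pygo1 (2.58) and Bcl9 (0.77, with overlap between the days). Tcf7l1, the repressor among the TCF factors in stem cells, had 115 ± 42.6 and 118 ± 42.2 CPM.

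**Figure D2:**
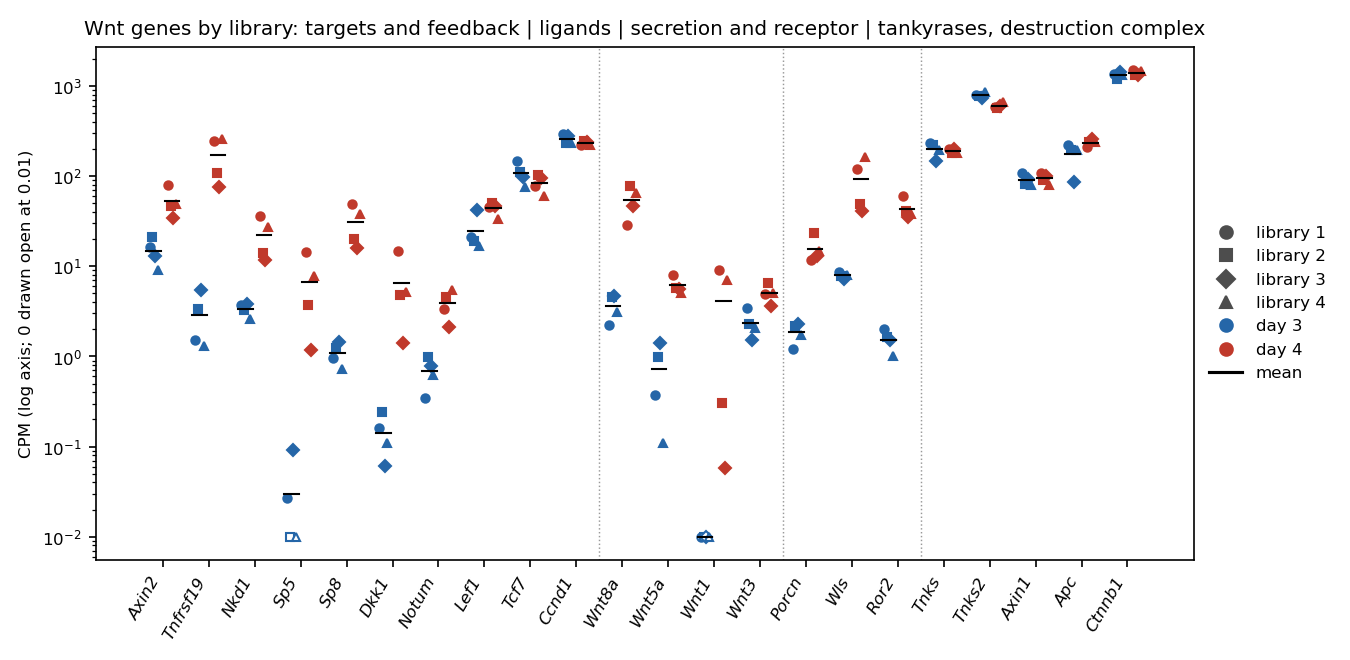
Level of 22 Wnt pathway genes (CPM, log axis) in the 4 day 3 libraries (blue) and the 4 day 4 libraries (red) of XAV939 aggregates, with the group means as black bars; symbols mark libraries 1 to 4 and open symbols at 0.01 stand for 0 counts. Called targets such as Axin2 and Sp5, the ligands Wnt8a and Wnt5a, Porcn, Wls and Ror2 lie higher at day 4, with means of 7.94 and 93.9 CPM for Wls, while the days overlap for Axin1 and Ctnnb1.

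By the rule for the 12 largest rises among genes of at least 5 CPM without overlap, these were Foxb1, Gm36356, 2510009E07Rik, Hes3, En1, Stum, Pax2, Pappa, Frzb, Bmp5, Sp5 and Irx1. Foxb1, a forkhead factor of the neural tube, had 0, 0.0602, 0.0304 and 0 CPM at day 3 and 28.2, 19.5, 10.1 and 39.2 CPM at day 4, 3 and 3179 counts in all, a ratio of 1047-fold (95% counting interval 358 to 5078). Its adjusted p was 2.23e-16. Hes3, a Hes factor of the midbrain-hindbrain boundary, had 12.8, 1.31, 0.98 and 9.23 CPM at day 4, a ratio of 394-fold (95% counting interval 109 to 3260.0). Stum, a membrane protein, went from 0.213, 0.0602, 0.426 and 0.22 CPM to 87.3, 36.9, 35.5 and 80.1 CPM (log2 fold change 8.01, SE 0.50, adjusted p 5.53e-14), and 2510009E07Rik, an uncharacterised gene, from 0.0532, 0.15, 0.0304 and 0.0732 CPM to 40.9, 14, 7.84 and 47.5 CPM (log2 fold change 8.43, SE 0.89, adjusted p 3.87e-09). In all 4 genes libraries 1 and 4 were the higher pair at day 4. Pappa, a protease that frees insulin-like growth factors from their binding proteins, rose from 0.0751 ± 0.113 to 18.7 ± 10.8 CPM (log2 fold change 7.87, SE 0.62, adjusted p 5.61e-12), and the ligand Bmp5 rose 243-fold (95% counting interval 82.8 to 1181) to 9.38, 0.823, 0.663 and 11.8 CPM. Gm36356, an uncharacterised transcript, had 10.7, 4.08, 2.85 and 12.4 CPM at day 4, a ratio of 487-fold (95% counting interval 134 to 4023).

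Single libraries moved several of these values. Without day 3 library 2 the log2 fold change was 10.77 for Foxb1 (fitted value with all libraries 9.84) and 8.67 for Bmp5 (7.75). Without day 3 library 3 it was 9.60 for Pappa (7.87). Without day 4 library 1 it was 7.67 for Hes3 (8.34), and without day 4 library 4 7.07 for Bmp5. Each of these kept its call without that library.

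Of 21 tested factors of the midbrain and hindbrain 14 rose and 0 fell, and their median log2 fold change of 4.22 was the highest of the lists, read beside 20.3% of all genes that rose. En1, which specifies the midbrain and anterior hindbrain, had 0, 0, 0.0609 and 0 CPM at day 3 and 8.9, 0.61, 0.634 and 9.95 CPM at day 4, a ratio of 324-fold (95% counting interval 89.2 to 2677). Pax2, which acts with it at the boundary of the 2 regions, had 0.0266, 0, 0.0304 and 0.0732 CPM and 20.1, 0.884, 1.09 and 11.1 CPM (log2 fold change 7.92, SE 1.01, adjusted p 1.4e-07). Lmx1b, a LIM factor of the same region, had 2.34, 2.8, 5.14 and 1.28 CPM and 65.8, 9.69, 18.6 and 18.6 CPM (log2 fold change 3.28, SE 0.66, adjusted p 0.000171). In each, all day 4 libraries lay above the day 3 libraries, and library 1 or 4 was the highest at day 4. The hindbrain factors Gbx2 and Irx1 went from 0.468 ± 0.241 to 14.1 ± 10.6 CPM (log2 fold change 4.93, SE 0.55, adjusted p 9.22e-09) and from 0.031 ± 0.0252 to 6.55 ± 6.07 CPM (log2 fold change 7.59, SE 0.88, adjusted p 2.22e-08), and Meis2, a partner of Hox proteins, from 0.133, 0.211, 0.883 and 0.22 CPM to 34.5, 25.9, 13.5 and 52.2 CPM (log2 fold change 6.44, SE 0.47, adjusted p 1.1e-12). Fgf8, the signal of the boundary, had 4.9, 1.93, 1.31 and 2.78 CPM and 3.61, 5.43, 2.71 and 3.48 CPM, with overlap, and was not called.

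The day 4 libraries differed widely over this list. Its summed level was 201, 82.6, 55.9 and 173 CPM in day 4 libraries 1 to 4, against 9.15 to 13.2 CPM at day 3 and 58.1 to 145 CPM in untreated day 4 libraries. Libraries 1 and 4 were the highest pair for 10 of the 14 members that rose, for 43.0% of all genes that rose and for 23.0% of all genes tested. By the chi-square per gene libraries 1 and 4 were nonetheless the least alike pair of day 4, at 128. No label tells the 4 libraries apart, and the part of the differences between them in the results was not tested. Without day 4 library 1 the log2 fold change was 6.99 for Pax2, 2.43 for Lmx1b and 6.72 for Irx1, and without library 4 4.30 for Gbx2 and 7.46 for En1. Without day 3 library 3 it was 10.48 for En1 and 7.38 for Meis2.

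**Figure D3:**
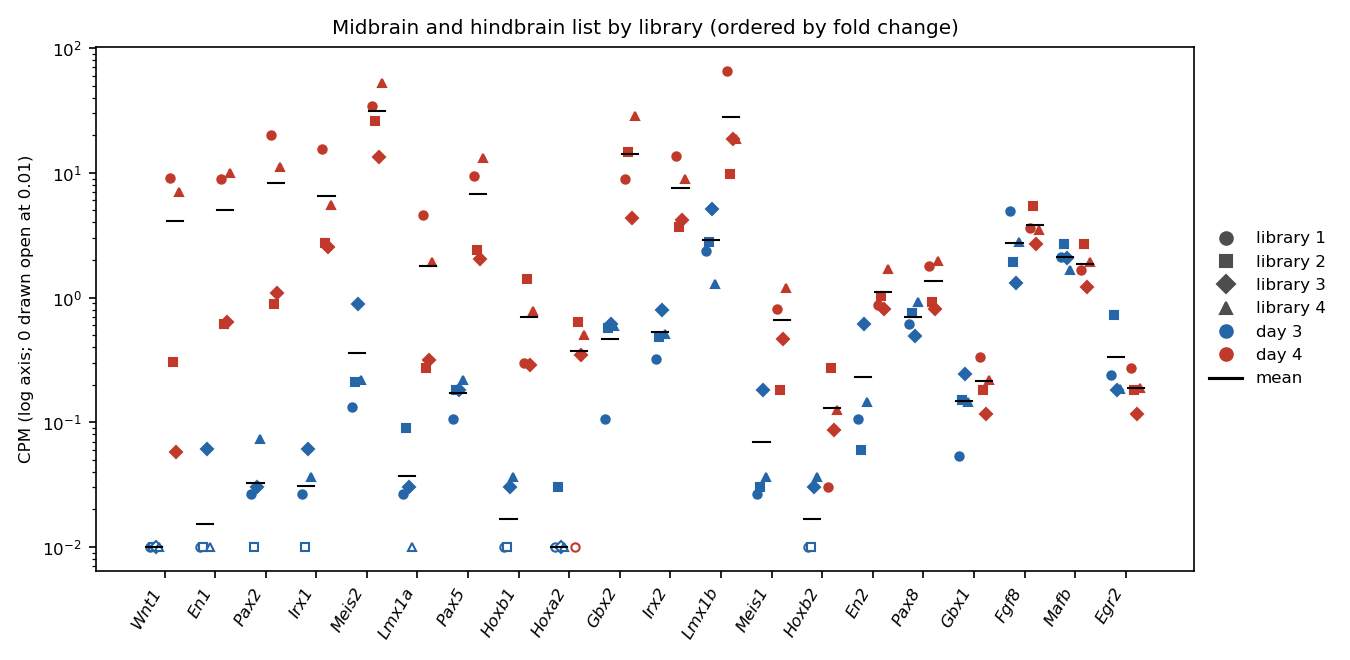
Level (CPM, log axis) of 20 of the 21 tested midbrain and hindbrain genes in day 3 (blue) and day 4 (red) libraries of XAV939 aggregates, ordered by fold change, with group means as black bars, open symbols at 0.01 for 0 counts and lower means drawn at 0.01. For Pax2 and En1 libraries 1 and 4 lie about an order of magnitude above libraries 2 and 3 at day 4, and Fgf8, at 2.73 and 3.81 CPM, overlaps between the days.

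Genes shared by neural progenitors along the axis rose too, 16 of 23 tested with 1 lower and a median of 2.19. Of all genes 20.3% rose and 17.7% fell. Sox1, a factor of the early neural plate, had 0.186, 0.18, 0.183 and 0.439 CPM at day 3 and 14.6, 3.93, 3.54 and 27.7 CPM at day 4 (log2 fold change 5.68, SE 0.65, adjusted p 2.02e-08), and without day 4 library 4 its log2 fold change was 4.90. Cdh2 (N-cadherin), the adhesion protein that replaces E-cadherin in neural tissue, rose from 5.27 ± 1.08 to 57.8 ± 22.2 CPM (log2 fold change 3.45, SE 0.28, adjusted p 1.17e-11), and Irx3 from 0.851 ± 0.4 to 31.3 ± 13.8 CPM (log2 fold change 5.18, SE 0.42, adjusted p 1.22e-11). Sox21 rose to 13.3, 1.25, 0.951 and 12.8 CPM (log2 fold change 5.43, SE 0.73, adjusted p 3.71e-07), where libraries 1 and 4 stood about an order of magnitude above 2 and 3. Pax6, a factor of later neural progenitors, was at 0.0799, 0.361, 0.791 and 0.586 CPM and 1.23, 1.62, 1.61 and 1.48 CPM, and its call (log2 fold change 1.74, SE 0.65, adjusted p 0.0322) was lost with no filter or without day 3 library 1 or 2 or day 4 library 2, 3 or 4 (adjusted p 0.0541 to 0.12). The one member that fell was Nes, the nestin gene, from 278 ± 18.2 to 142 ± 36.2 CPM (log2 fold change -0.97, SE 0.21, adjusted p 0.000454). Sox2, shared by pluripotent and neural cells, had 15.1, 22.2, 33.3 and 16.5 CPM and 38.7, 33, 37.4 and 32.6 CPM and was not called (log2 fold change 0.70, SE 0.32, adjusted p 0.0809).

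In the forebrain list 9 of 18 rose and 0 fell, with a median of 2.24. The shares of all genes, 20.3% higher and 17.7% lower, stand beside each list of this paragraph. Only 5 members of the forebrain list reach 5 CPM in 4 of all 40 libraries, and 3 of them rose. The summed level of the list overlapped between the days, at 192 to 291 CPM (median 244.65) at day 3 and 217 to 450 CPM (median 245.15) at day 4. Hesx1, an anterior repressor, had 0.719, 0.391, 0.274 and 0.659 CPM at day 3 and 22.3, 1.31, 1.99 and 3.14 CPM at day 4 (log2 fold change 3.81, SE 0.74, adjusted p 0.000106). Day 4 library 1 stood far above the rest, and leaving it out gave a log2 fold change of 2.06. Six3, a factor of the eye field and forebrain, reached 2.35, 0.305, 0.634 and 0.502 CPM from 1 count in all at day 3, a ratio of 125-fold (95% counting interval 21.9 to 4954); its fitted log2 fold change of 6.42 was 8.07 without day 3 library 2 and 5.45 without day 4 library 1. Of 14 tested genes of neurons 7 rose and 0 fell. Gap43, a protein of growth cones, rose from 4.19 ± 0.836 to 21.2 ± 3.18 CPM and Dcx, a microtubule protein of migrating neurons, from 0.932, 0.993, 0.852 and 0.878 CPM to 13.1, 12.3, 13.6 and 11.4 CPM. Neuron genes thus differed little between day 4 libraries: their summed level was 181.5 to 200.4 CPM at day 4 and 75.5 to 89.8 CPM at day 3. Of 13 neural crest genes 7 rose and 0 fell, and 4 rose of the 9 that reach 5 CPM in 4 libraries. Sox9 had 28.2, 7.32, 6.02 and 8.54 CPM at day 4 (log2 fold change 2.85, SE 0.41, adjusted p 1.14e-06) and Pax3 3.94, 0.549, 0.432 and 2.39 CPM (log2 fold change 5.0, SE 1.08, adjusted p 0.000406), values that were 2.07 and 4.29 without day 4 library 1. For Pax3 it was 7.04 without day 3 library 3.

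Genes of the caudal epiblast, the population next to the streak that feeds the trunk, rose in the same step: 11 of 20 tested, with 1 lower (Cystm1) and a median of 3.29, or 3.03 with genes of 0 counts at their bound. Nkx1-2, a homeobox factor of this region, had 0.453, 0.572, 0.67 and 0.659 CPM at day 3 and 43, 62.7, 31.6 and 81.1 CPM at day 4 (log2 fold change 6.54, SE 0.76, adjusted p 2.34e-08). Its annotation overlaps Fgfr2 in the same orientation, and whether the counting kept their reads apart is not known. Cyp26a1, which breaks down retinoic acid, had 0.133, 0.18, 0.152 and 0.512 CPM and 25.6, 6.62, 7.09 and 7.94 CPM (log2 fold change 5.65, SE 0.64, adjusted p 1.47e-08; 4.93 without day 4 library 1), with library 1 far above the rest at day 4. Of 16 genes of retinoic acid metabolism and response 4 rose, Cyp26a1 among them, near the 20.3% of all genes, and 0 fell. Counts of the caudal Cdx factors were few. Cdx2 had 0 counts in all at day 3 and 0.0601, 0.183, 0.202 and 0.157 CPM at day 4, at least 6.59-fold higher by the same floor of 3 counts, and was not called (adjusted p 0.179). Cdx1 (0.0302 and 0.268 CPM) and Cdx4 (0.0644 and 0.0524 CPM) were not called either.

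Of 17 tested streak and mesendoderm genes 4 rose (T, Eomes, Evx1 and Pdgfra) and 1 fell (Foxj1), with a median of 0.69. Without day 3 library 4, 2 rose. Over all genes 20.3% rose and 17.7% fell. The shares that rose in this list and in the other lists of this paragraph lie near or below that of all genes. Eomes, a T-box factor of the streak, stood at 4.21, 4.99, 7 and 5.42 CPM at day 3 and 45, 82.6, 49.6 and 64.1 CPM at day 4 (log2 fold change 3.48, SE 0.52, adjusted p 2.1e-06). Mixl1, another streak factor, had 0.346, 0.481, 0.304 and 0.586 CPM and 0.511, 1.1, 0.576 and 0.942 CPM and was not called (log2 fold change 0.87, SE 1.1, adjusted p 0.563). Thus Eomes and T did not overlap between the days, and Mixl1 did. Of mesoderm factors, Tbx6 had 0.71 ± 0.13 and 0.51 ± 0.145 CPM and Mesp1 had 1 and 3 counts in all, neither called. Of 19 presomitic and nascent mesoderm genes 3 rose and 1 fell, namely Rspo3, Lfng (2.61 to 11.9 CPM) and Kdr on the one side and Meox1 on the other, and 0 fell without day 3 library 1 or 3 or day 4 library 1 or 4. Kdr (Flk1), a receptor of vascular precursors, had 0.0799, 0.0902, 0.0913 and 0.22 CPM and 12, 4.3, 2.08 and 10.2 CPM (log2 fold change 5.91, SE 0.87, adjusted p 1.86e-06), with libraries 1 and 4 the higher pair. Of 11 tested blood and endothelial genes 2 rose (Kdr and Flt1) and 4 fell (Pecam1, Ptprc, Lmo2 and Tek), and 2 fell without day 3 library 3 or day 4 library 3. Their summed level was 37.6 to 50.8 CPM at day 3 and 26.3 to 35.9 CPM at day 4, and Tek, an endothelial receptor, fell from 15 ± 3.13 to 3.53 ± 1.48 CPM. Of 17 endoderm and gut genes 2 rose (Foxa1 and Cxcr4) and 5 fell (Epcam, Cldn6, Krt8, Krt18 and Cdh1), the latter all genes of epithelia in general. Without any one of the 8 libraries other than day 3 library 2 the number that rose was 1. Sox17 had 0.0704 and 0.0766 CPM and Gata6 0.193 and 0.674 CPM, neither called.

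Among Hox genes of paralogue groups 1 to 4, 4 of 12 rose and 0 fell, and among those of groups 5 to 13, 1 of 16 (Hoxd13), or 2 without day 4 library 3. Over all genes 20.3% rose. The 27 genes of groups 5 to 13 together summed to 0.346 to 1.58 CPM at day 3 and 0.98 to 1.56 CPM at day 4, with overlap. In the first set 4 tested members, and in the second 9, were at or below 3 counts in both groups. Hoxb1 had 2 counts at day 3 and 91 at day 4, a ratio of 44.9-fold (95% counting interval 12.1 to 377), and Hoxa2 1 and 49, a ratio of 48.4-fold (95% counting interval 8.29 to 1950.0), with 0 counts in day 4 library 1. Both lay below 2 CPM in every library. The fitted log2 fold change of Hoxb1 was 5.21, or 4.6 without day 4 library 2, and that of Hoxa2 5.07, or 6.73 without day 3 library 2.

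Of 28 core and primed epiblast genes 7 rose and 5 fell (Dppa4, Dppa5a, Dnmt3a, Slc7a3 and Tdgf1), with a median of -0.13, 4 rose without day 3 library 4, and 9 fell in the 8 libraries alone. The counts with all libraries lie near the 20.3% of all genes that rose and the 17.7% that fell. Epha4 (5.04 to 56.7 CPM) and the let-7 blockers Lin28a (713, 561, 737 and 556 CPM to 1391, 1076, 1068 and 1144 CPM) and Lin28b (1.20) rose. Nanog, which holds cells in pluripotency, had 97.5, 90.9, 80.7 and 92.1 CPM and 164, 211, 148 and 211 CPM, higher in every day 4 library. Its call (log2 fold change 1.02, SE 0.39, adjusted p 0.0373) was lost with no filter and without any one of the day 3 libraries or day 4 library 2 or 4 (adjusted p 0.0611 to 0.0926). The kinase Pim2 rose from 356 ± 57.4 to 813 ± 155 CPM (adjusted p 0.0164, and 0.0562 without day 3 library 4). Dppa4 and Dppa5a, genes of pluripotent cells, fell from 112 ± 33.1 to 23.3 ± 13.2 CPM (log2 fold change -2.27, SE 0.60, adjusted p 0.00299) and from 473 ± 179 to 97.8 ± 56.4 CPM (log2 fold change -2.27, SE 0.70, adjusted p 0.00973). The methyltransferase Dnmt3a fell from 609, 467, 569 and 515 CPM to 231, 343, 361 and 172 CPM (log2 fold change -0.96, SE 0.18, adjusted p 8.3e-05), unlike Dnmt3b, while the demethylase Tet3 rose (0.87). Utf1 had 114, 89, 99.4 and 76.9 CPM and 23.2, 56.1, 76.2 and 12.8 CPM, lower in all 4 day 4 libraries, but was not called (log2 fold change -1.17, SE 0.51, adjusted p 0.0688).

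Of 20 genes of naive pluripotency 3 rose (Prdm14, Nr5a2 and Gbx2) and 6 fell, beside 20.3% and 17.7% of all genes. The days did not overlap for 1 of those that rose and 4 of those that fell. Over the settings run 1 to 4 rose and 4 to 7 fell. Zfp42 (Rex1) had 17.8 ± 5.16 and 10.7 ± 7.92 CPM and Klf4 3.03 ± 1.16 and 2.75 ± 0.749 CPM, neither called. Fgf4, a ligand that pluripotent cells make, fell from 82.2, 93.2, 93.8 and 90.1 CPM to 10.2, 33.3, 21.9 and 12.9 CPM (log2 fold change -2.20, SE 0.51, adjusted p 0.000931), and Fbxo15 from 48.1 ± 18.7 to 14.9 ± 9.95 CPM (log2 fold change -1.69, SE 0.49, adjusted p 0.00667), the latter with overlap between the days. Among 9 germ cell genes 1 rose (Prdm14; 0 without day 3 library 1, 3 or 4 or day 4 library 2) and 4 fell (Prdm1, Ddx4, Dazl and Mael), Mael, of the piRNA pathway, from 16.9 ± 6.48 to 3.19 ± 1.7 CPM.

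Nodal signalling keeps the epiblast pluripotent and induces the streak, and its inhibitors Lefty1 and Lefty2 are its direct targets. Of 23 tested genes of the pathway 2 rose (Acvr2b and Fst) and 7 fell, with a median of -0.56. Of all genes 20.3% rose and 17.7% fell. Lefty1 had 408, 244, 135 and 292 CPM at day 3 and 14.1, 107, 43.8 and 28.9 CPM at day 4 (log2 fold change -2.48, SE 0.57, adjusted p 0.000785), and Lefty2 39.2, 40.3, 33.6 and 49.3 CPM and 4.6, 20.5, 8.53 and 8.57 CPM (log2 fold change -1.94, SE 0.49, adjusted p 0.00195). The co-receptor Tdgf1 (Cripto) fell from 149, 214, 251 and 282 CPM to 16.6, 94.1, 34.9 and 35.2 CPM (log2 fold change -2.31, SE 0.62, adjusted p 0.00335). For all 3 genes the days did not overlap, and day 4 library 2 was the highest; without it the log2 fold changes of Lefty1 and Tdgf1 were -3.22 and -2.95. The targets Smad7 and Skil fell by 1.73 and 1.36 on the log2 scale. Nodal itself had 78.8, 79.3, 35.5 and 66.7 CPM and 25, 79.6, 51.5 and 31.4 CPM, with overlap, and was not called (log2 fold change -0.47, SE 0.41, adjusted p 0.376). Fst (follistatin), which binds Activin, rose from 14.4, 12.9, 14.2 and 12.7 CPM to 73, 103, 61.7 and 126 CPM (log2 fold change 2.75, SE 0.35, adjusted p 1.26e-07).

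In the FGF/ERK list 8 of 26 rose and 7 fell, beside 20.3% and 17.7% of all genes, and 4 fell of the 22 that reach 5 CPM in 4 libraries. The receptor genes Fgfr1, Fgfr2 and Fgfr3 rose and Fgfr4 fell. Fgfr1 had 109, 83.9, 67.2 and 65.4 CPM at day 3 and 432, 235, 255 and 254 CPM at day 4 (log2 fold change 1.85, SE 0.19, adjusted p 1.51e-09), and Fgfr3 went from 0.569 ± 0.258 to 5.68 ± 4.01 CPM (log2 fold change 3.31, SE 0.45, adjusted p 5.12e-07). Of the genes that ERK induces, Egr1 fell from 47, 51.8, 5.87 and 22.1 CPM to 3.13, 2.93, 2.48 and 3.77 CPM (log2 fold change -3.37, SE 0.65, adjusted p 9.8e-05) and Etv5 from 512 ± 106 to 207 ± 98 CPM (log2 fold change -1.31, SE 0.28, adjusted p 0.000318), whereas Dusp6 and Spry4 were not called. Day 3 library 3 had by far the least Egr1 of its group and was still above every day 4 library. In the BMP list 9 of 23 rose and 2 fell (Smad7 and Bambi). Id1, a target of BMP signals, rose from 0.666, 1.02, 0.7 and 0.915 CPM to 11, 3.11, 3.75 and 6.22 CPM (log2 fold change 2.87, SE 0.38, adjusted p 2.88e-07), and Bmper, which binds BMPs, from 0.206 ± 0.098 to 2.83 ± 2.07 CPM. In the Notch list 4 of 21 rose (Notch2, Hes3, Nrarp and Lfng) and 3 fell (Notch3, Jag2 and Hes6), no larger shares than over all genes, and 2 rose without day 3 library 4 or day 4 library 1. Of these genes Hes6 was lower (log2 fold change -1.94, SE 0.26, adjusted p 4.64e-07) and Lfng, which modifies Notch, higher (log2 fold change 2.19, SE 0.36, adjusted p 1.16e-05). Notch3 had 215 ± 63 and 128 ± 35.3 CPM, a call (adjusted p 0.0162) that was lost without day 3 library 1 or day 4 library 4 (0.0852 and 0.0675).

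The lists with the lowest medians were those of the response to low oxygen and of glycolysis. Of 14 tested hypoxia genes 0 rose, or 1 without day 3 library 2, and 11 fell, with a median of -1.93. Of all genes 20.3% rose and 17.7% fell. With the filter of 5 CPM in 4 libraries 9 of 12 hypoxia genes fell. Bnip3 (chromosome 7, 138890836 to 138909519, mm10), a mitochondrial protein that promotes mitophagy, had 159, 261, 317 and 262 CPM at day 3 and 25.2, 32, 34.7 and 28.4 CPM at day 4 (log2 fold change -3.05, SE 0.31, adjusted p 1.61e-09). Egln3 and Egln1, the oxygen-sensing hydroxylases that mark the factor HIF for breakdown and are themselves its targets, fell from 71.2, 115, 85.9 and 79.3 CPM to 11.1, 15.1, 15.3 and 10.8 CPM (log2 fold change -2.75, SE 0.25, adjusted p 1.09e-10) and from 62.1 ± 12.2 to 17.9 ± 3.27 CPM (log2 fold change -1.80, SE 0.25, adjusted p 6.58e-07). Ndrg1, another gene of this response, fell from 109 ± 45 to 15.8 ± 3.09 CPM (log2 fold change -2.78, SE 0.56, adjusted p 0.000157). The days did not overlap for any of the 11 genes. The 3 genes not called were Vegfa, the vascular growth factor (18.2, 47.8, 20.3 and 30.8 CPM and 43.1, 25.5, 25 and 24.7 CPM), the hexokinase Hk2 (116 ± 34.5 and 150.3 ± 4.57 CPM) and the glucose transporter Slc2a1 (642 ± 102 and 810.0 ± 139 CPM).

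Of 21 tested genes of glycolysis and glucose uptake 17 fell and 1 rose (Slc2a3), with a median of -0.92, and 2 rose without day 3 library 2. Of all genes 17.7% fell and 20.3% rose. Pgk1 had 1341, 1511, 1992 and 1585 CPM at day 3 and 309.7, 303, 267 and 328 CPM at day 4 (log2 fold change -2.41, SE 0.20, adjusted p 2.64e-11). Aldoa, the aldolase gene, had 2797, 3207, 2543 and 2124 CPM and then 628, 756, 783 and 491 CPM (log2 fold change -2.01, SE 0.24, adjusted p 4.66e-08). Pdk1, the kinase that keeps pyruvate out of mitochondria, fell from 219 ± 35.6 to 44.3 ± 18.8 CPM (log2 fold change -2.30, SE 0.30, adjusted p 2.27e-07), and Tpi1 from 1137 ± 189 to 377 ± 22.9 CPM (log2 fold change -1.59, SE 0.22, adjusted p 5.6e-07). Pkm and Ldha, the last enzymes of the path to lactate, fell from 4089 ± 439 to 2215 ± 330.1 CPM and from 3489 ± 457 to 1900.0 ± 107 CPM, each by 0.88. Gapdh fell less, by 0.42, and its adjusted p of 0.0158 was 0.0515 without day 4 library 4. Slc2a3 (GLUT3), a glucose transporter, rose from 238, 475, 296 and 266 CPM to 1210.0, 593, 485 and 1107 CPM (log2 fold change 1.41, SE 0.30, adjusted p 0.000338), with libraries 1 and 4 highest at day 4. Pfkm, Hk2 and Slc2a1 were not called.

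Promoter windows of the hypoxia genes were searched for the core letters of the HIF site, ACGTG or its reverse complement CACGT, a motif chosen after the values were seen that also lies inside the E-box CACGTG. It was in 27.9% of the tested genes with a window, in 25.5% of those that rose, in 28.5% of those that fell, in 11 of 13 hypoxia genes and in 13 of 20 glycolysis genes. The windows of Bnip3 (chr7:138909457-138909756, minus strand) and Egln3 (chr12:54203825-54204124, minus strand), which fell, are shown beside that of Slc2a1 (chr4:119108495-119108794, plus strand), which was not called, from the same RefSeq build, with the motif in capitals.
Bnip3: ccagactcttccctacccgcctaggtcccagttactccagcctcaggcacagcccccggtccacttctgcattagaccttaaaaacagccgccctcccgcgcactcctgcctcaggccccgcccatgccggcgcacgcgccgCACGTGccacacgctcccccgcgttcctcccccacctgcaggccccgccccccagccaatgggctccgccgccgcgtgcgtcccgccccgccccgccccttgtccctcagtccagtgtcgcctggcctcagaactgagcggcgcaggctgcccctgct
Egln3: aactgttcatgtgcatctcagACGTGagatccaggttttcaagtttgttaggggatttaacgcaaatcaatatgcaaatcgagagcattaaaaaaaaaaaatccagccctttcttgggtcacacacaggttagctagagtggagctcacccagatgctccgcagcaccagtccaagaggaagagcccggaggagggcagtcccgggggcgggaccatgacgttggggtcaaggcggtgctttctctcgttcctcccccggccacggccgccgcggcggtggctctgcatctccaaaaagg
Slc2a1: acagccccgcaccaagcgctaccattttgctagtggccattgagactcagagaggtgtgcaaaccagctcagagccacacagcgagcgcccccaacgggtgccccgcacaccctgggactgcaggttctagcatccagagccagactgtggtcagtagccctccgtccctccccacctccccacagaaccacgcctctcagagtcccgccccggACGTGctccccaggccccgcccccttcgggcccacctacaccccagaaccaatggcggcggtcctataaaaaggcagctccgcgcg
In Bnip3 the motif and its complement overlap in 1 E-box. A gene with several windows was counted where any of them holds the motif. Hk2 holds it too, while Vegfa, with windows at 2 starts, holds it only in the one at chr17:46025114-46025413, which lies inside the annotated gene (chromosome 17, 46016993 to 46032369) and not at its 5′ end.

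The 12 largest falls by the rule were Tmprss4, Ndufa4l2, Osgin1, Mocos, Anxa2, Il10, Grin1, Fetub, Cpt1a, Egr1, Ppp2r2c and Pla2g10. Tmprss4, a serine protease of the cell surface, had 9.61, 8.87, 8.77 and 8.27 CPM at day 3 and 0.21, 0.518, 0.317 and 0.188 CPM at day 4 (log2 fold change -4.83, SE 0.45, adjusted p 2.51e-10). Ndufa4l2, a mitochondrial protein known to be induced in low oxygen, went from 26.3, 23.8, 19.1 and 12.2 CPM to 1.38, 1.04, 0.893 and 0.597 CPM (log2 fold change -4.37, SE 0.58, adjusted p 3.11e-07). Anxa2, a calcium-binding membrane protein, stood at 67.9, 95.9, 124 and 73.6 CPM at day 3 and had 7.07, 7.68, 6.02 and 5.56 CPM at day 4 (log2 fold change -3.78, SE 0.33, adjusted p 5.13e-11). In all 3 the days were far apart. Cpt1a, which brings fatty acids into mitochondria, fell from 67.2 ± 7.75 to 5.67 ± 3.13 CPM (log2 fold change -3.57, SE 0.42, adjusted p 2.51e-08), and Ppp2r2c, a subunit of protein phosphatase 2A, from 82.7 ± 7.77 to 9.36 ± 2.04 CPM (log2 fold change -3.14, SE 0.30, adjusted p 5.55e-10). Osgin1, Mocos, Il10, Grin1, Fetub and Pla2g10 fell by between 3.12 and 4.17 on the log2 scale. By difference in CPM the 5 largest falls were those of Aldoa, Pkm and Ldha, of Rpl4, a protein of the large ribosomal subunit (4911 ± 876 to 3346 ± 116 CPM), and of the peroxidase Prdx1 (2749 ± 866 to 1400.0 ± 97.5 CPM).

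Epithelial genes fell, 14 of 21 tested, and 1 rose (Dsp), with a median of -0.83, beside 17.7% and 20.3% of all genes. The number that rose was 0 without day 3 library 2, 3 or 4 or day 4 library 1, 2 or 3. The keratins Krt18 and Krt8 fell from 341, 366, 395 and 352 CPM to 62.7, 86.4, 89.8 and 54.2 CPM (log2 fold change -2.31, SE 0.29, adjusted p 9.96e-08) and from 182 ± 5.11 to 60.2 ± 10.9 CPM (log2 fold change -1.60, SE 0.32, adjusted p 0.000159). The tight junction genes Ocln and Cldn4 fell from 49.9 ± 4.89 to 14.8 ± 2.67 CPM (log2 fold change -1.75, SE 0.21, adjusted p 4.8e-08) and from 93 ± 7.52 to 21 ± 10.9 CPM (log2 fold change -2.15, SE 0.36, adjusted p 1.38e-05). Cdh1 (E-cadherin) had 1293, 1068, 1239 and 968 CPM and 633, 787, 876 and 466 CPM, lower in every day 4 library, and its call (log2 fold change -0.73, SE 0.26, adjusted p 0.027) was lost without day 3 library 1 or 3 or day 4 library 1 or 4 (adjusted p 0.0507 to 0.0897). Of the 8 trophectoderm genes, 4 fell (Elf5, Krt7, Plet1 and Ascl2) and 1 rose (Tfap2a; 2 rose without day 3 library 3), the keratin Krt7 from 11.7 ± 1.9 to 1.66 ± 0.676 CPM.

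Genes of epithelial to mesenchymal transition rose at the same time, 7 of 14 with 0 lower and a median of 0.80. Zeb2, which represses E-cadherin and is also a neural factor, had 2.34, 2.8, 1.67 and 1.5 CPM at day 3 and 71.7, 36.4, 43.5 and 84.1 CPM at day 4 (log2 fold change 4.81, SE 0.34, adjusted p 6.67e-13), and Cdh11 rose from 3.07 ± 1.2 to 31.1 ± 19.4 CPM (log2 fold change 3.34, SE 0.40, adjusted p 4.09e-08). Like Cdh2, both had libraries 1 and 4 highest at day 4. Of 22 matrix genes 6 rose and 3 fell (Nid2, Thbs1 and Itgb1), near the 20.3% of all genes that rose and the 17.7% that fell. Vcan, the proteoglycan versican, had 5.94, 8.6, 7.49 and 8.38 CPM and 52.5, 58.4, 65.6 and 70.6 CPM (log2 fold change 3.02, SE 0.31, adjusted p 1.97e-09), and the basement membrane genes Col4a1 (1.44) and Nid2 (-1.40) went opposite ways.

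Genes of sterol synthesis rose by small steps: 14 of 20 tested rose and 0 fell, with a median of 0.49. The days did not overlap for 8 of the 14, and over the settings run 10 to 15 rose. Hmgcs1, an early enzyme of the pathway, had 553, 494, 429 and 662 CPM at day 3 and 1185, 998, 1024 and 1246 CPM at day 4 (log2 fold change 1.06, SE 0.11, adjusted p 2.16e-09), and Nsdhl went from 56.8 ± 5.09 to 102 ± 18.3 CPM (log2 fold change 0.85, SE 0.11, adjusted p 9.96e-08). Scd2, a desaturase of fatty acids, had with Hmgcs1, Slc2a3, Lin28a and Prtg 1 of the 5 largest gains in CPM, from 919 ± 165 to 1869 ± 196 CPM (log2 fold change 1.02, SE 0.16, adjusted p 3.84e-06). Prtg (protogenin), a surface protein of the early neural tube and mesoderm, had 118, 77.8, 76 and 69 CPM and 722, 450.1, 439.8 and 619 CPM (log2 fold change 2.71, SE 0.21, adjusted p 3.27e-12). Of 24 imprinted genes 9 rose and 2 fell (Phlda2 and Slc22a18), or 1 without day 3 library 3 or day 4 library 3. Over all the settings run 7 to 12 imprinted genes rose and 0 to 4 fell. Igf2, a fetal growth factor, rose from 1.36, 1.59, 1.58 and 1.28 CPM to 42.9, 10.2, 9.02 and 27 CPM (log2 fold change 3.93, SE 0.39, adjusted p 9.4e-10), with libraries 1 and 4 highest, and Zdbf2 by 1.95 on the log2 scale. In the cell cycle list 2 of 26 rose (Ccnd2 and Cdk6) and 5 fell (Ccna1, Ccnb1, Cdk1, Cdkn2b and Pcna), the latter near the 17.7% of all genes that fell and the former below the 20.3% that rose. The number that fell was 3 without day 3 library 4, without day 4 library 1 or in the 8 libraries alone. Ccnd2, a D-type cyclin, rose from 2.72, 5.02, 10.9 and 3.04 CPM to 89.6, 52, 32.6 and 90.4 CPM (log2 fold change 3.61, SE 0.47, adjusted p 2.48e-07) and its partner Cdk6 by 1.18, while the mitotic cyclin Ccnb1 fell by 0.68.

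Of 17 genes of the integrated stress response 0 rose and 4 fell (Slc7a11, Nupr1, Ppp1r15a and Fgf21), or 3 to 6 over the settings run. Over all genes 20.3% rose and 17.7% fell, the shares to set beside both lists of this paragraph. The 4 of 17 lie near the latter. Summed levels of the stress list overlapped, at 2091 to 3420 CPM at day 3 and 1742 to 3130 CPM at day 4, library 1 being the highest at day 4. The chromatin protein Nupr1 fell from 11.4, 27.6, 42.6 and 23.3 CPM to 4.87, 7.47, 4.03 and 1.82 CPM (log2 fold change -2.53, SE 0.38, adjusted p 2.74e-06). Slc7a11, the cystine transporter, had 41.9 ± 20.9 and 14.8 ± 5.99 CPM, and its call (adjusted p 0.0234) was lost without day 3 library 3 or day 4 library 3 or 4 (0.0554 to 0.113). Of 16 p53 response genes 2 rose (Perp and Trp53) and 4 fell (Mdm2, Trp53inp1, Ccng1 and Pmaip1), with Pmaip1 (Noxa) lower by 1.14 and Mdm2 by 0.77.

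**Figure D4:**
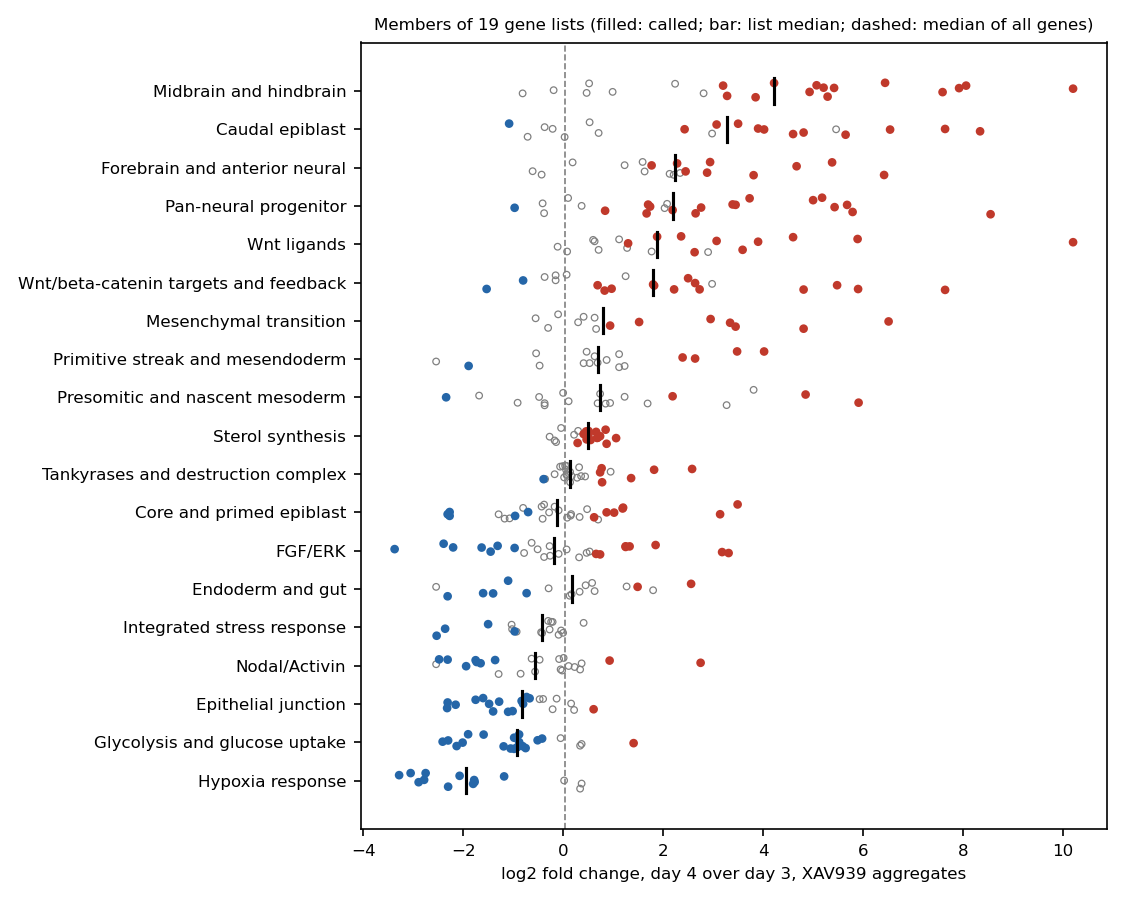
Each point is a tested member of 1 of 19 gene lists, with its log2 fold change, day 4 over day 3, in XAV939 aggregates on the x axis; red and blue points were called higher and lower, open points were not called, black bars are list medians and the dashed line is the median of all genes. The list medians run from 4.22 for midbrain and hindbrain genes to -1.93 for hypoxia genes, and the tankyrase and destruction complex list lies at 0.14.

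Whether the step differed from that of untreated aggregates was tested directly, as the difference of the steps of the arms. With edgeR 0 genes (0.0%) were called at a smallest adjusted p of 1.0, DESeq2 called 0 as well, and 491 of 16878 genes (2.91%) had an unadjusted p below 0.05. A missing call does not show that the steps were alike, and single genes give the size of the differences. For Axin2 the untreated means were 18.1 CPM at day 3 and 61.5 CPM at day 4, and the difference of the steps on the log2 scale was 0.06 (SE 0.43). Untreated day 4 libraries were uneven over the Wnt target list, with a summed level of 1646 CPM in library 1 and 725, 675.5 and 771 CPM in libraries 2 to 4. For Bnip3 the difference was -0.11 (SE 0.41) and for Pgk1 -0.19 (SE 0.27). Of the genes that rose after XAV939, 3396 (99.1%) also had a positive log2 fold change in untreated aggregates, and of those that fell, 2957 (99.1%) a negative one. Across 10437 genes whose mean reached 5 CPM, Pearson's r of the steps was 0.936 on mean log2(CPM + 0.5). Genes are not independent replicates, and libraries of the same day and number in the 2 arms deviated together, so this r describes these libraries only.

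The smallest unadjusted p-values of the difference belonged to Nuak2, Mcc and Mixl1, of which the first 2 are named after their values were seen. Nuak2, a kinase related to AMPK, rose after XAV939 from 4.18 ± 0.738 to 12.2 ± 5.93 CPM (adjusted p 5.57e-05), against untreated means of 5.5 and 5.16 CPM (difference 1.63, SE 0.40, unadjusted p 0.000233). Mcc went from 1.42 ± 0.377 to 8.25 ± 2.55 CPM, against untreated means of 1.35 and 30.3 CPM (difference -1.96, SE 0.52). For the streak genes Mixl1 and T the untreated libraries spread widely. Over the streak list the summed level was 1484 CPM in untreated day 4 library 1 and 275, 176 and 198 CPM in libraries 2 to 4. Untreated means of Mixl1 were 0.463 CPM at day 3 and 44.1 CPM at day 4, but single untreated day 4 libraries ran from 2.06 to 167 CPM, and the difference of the steps was -5.70 (SE 1.52, unadjusted p 0.000663). T ran from 11.8 to 549.5 CPM in untreated day 4 libraries, all above the highest XAV939 day 4 library at 7.80 CPM, with a difference of -3.71 (SE 1.24, unadjusted p 0.00494). None of these passed the adjustment over all genes.

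**Figure D5:**
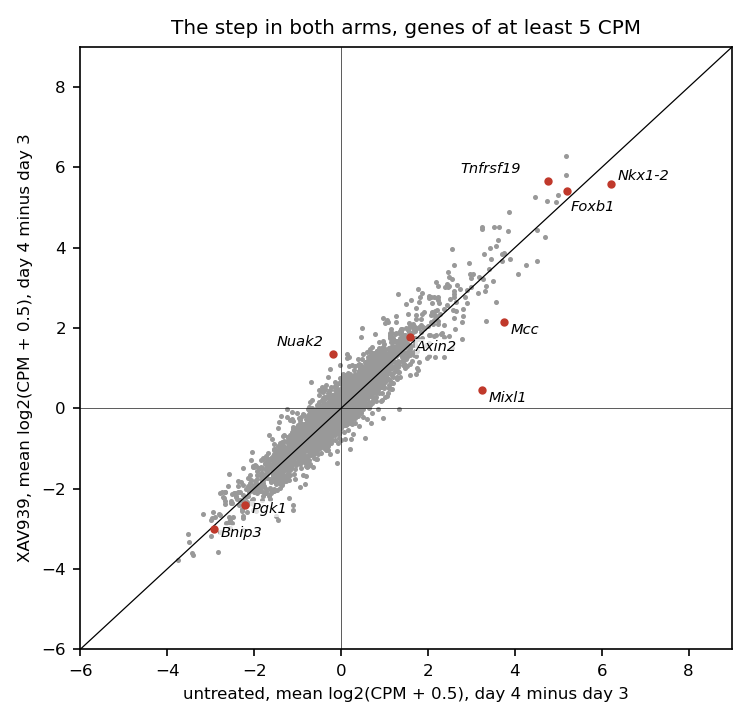
Each point is 1 of 10437 genes whose mean reached 5 CPM, with its change from day 3 to day 4 in untreated aggregates on the x axis and in XAV939 aggregates on the y axis, both as differences of mean log2(CPM + 0.5), and the line marks equal steps. Points follow the line with an r of 0.936, and Mixl1 and Mcc lie below it and Nuak2 above it.

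Levels of later days place the step in the course of the XAV939 aggregates, given here as description with no test. Pou5f1, still at 660.3 ± 241 CPM at day 4, had 246 ± 127 CPM at day 5 and 2.99 ± 1.26 CPM at day 7. T, at 5.15 CPM at day 4, stood at 196 ± 69.8 CPM at day 5 and 66.1 ± 28.7 CPM at day 6, and Cdx2 went from 0.15 CPM at day 4 to 21.6 ± 5.46 and 34.3 ± 26.2 CPM. Their highest levels thus came after the step. Nkx1-2 reached 218 ± 56 CPM at day 5 and 2.56 ± 2.24 CPM at day 7, and Wnt8a 119 ± 24.1 and 1.76 ± 2.64 CPM. The mean of Axin2 lay between 43 and 74.7 CPM from day 5 to day 7. Gm36356 had 0.34 ± 0.254 CPM at day 5, below its day 4 level, whereas the mean of Foxb1 lay at 21.7 to 40.1 CPM. Sox1 had 97.1 ± 20.9 CPM at day 5, above its day 4 libraries in the mean, and Pax6, at 1.49 CPM at day 4, reached 67.7 ± 29.2 CPM at day 7. Bnip3 stood at 19.8 ± 8.49 CPM at day 5 and 92.9 ± 32.7 CPM at day 7, and Pgk1 at 405 ± 105 and 687 ± 169 CPM, below their day 3 levels of 249.5 and 1607 CPM.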

How the data were processed

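Polyadenylated RNA of aggregates was sequenced from stranded TruSeq libraries, per the labels' protocols. The authors deposited a matrix of raw counts per gene for all 40 libraries, which was used as deposited. The tool bcl2fastq 2.20.0 and the build mm10 are listed per the submitters' processing notes, and neither an aligner nor a counting tool or its strand setting is named: not given in the sources used here. Without the strand setting, reads of a gene and of an antisense partner may not be separated. Of 26906 genes, 26857 matched GENCODE M21, which gave the coordinates.

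All 40 libraries were fitted by their 10 groups in edgeR 4.0.16 (R 4.3.3, limma 3.58.1) with TMM scaling, a minimum count of 10 and a minimum total of 15 (filterByExpr), and the robust quasi-likelihood test with Benjamini-Hochberg adjustment, with 30 residual degrees of freedom. The contrasts were day 4 against day 3 after XAV939, and the difference of that step from the untreated one. CPM are counts per 1000000 counts of the TMM-scaled library total. The scripts were tested on simulated counts, with 100 genes changed 2-fold and 100 changed 4-fold. For the step 67% and 91% of these were recovered, and 7.6% of the calls were false. For the difference between the arms 47% and 88% were recovered, and 7.53% of the calls were false. Alternatives were other scaling, filters, DESeq2 1.42.0, the 8 libraries alone, replicate blocks, a log2 threshold of 1 and each library left out. No 2 libraries of the same day were duplicates among the 8 after XAV939; the other 32 were not compared.

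Within a day, libraries of the arms with the same number deviated together, with correlations of 0.221 to 0.805 over 8 pairs, so the numbers were taken to pair the arms from the data, since no label states a shared batch. The block within the day left 0 genes called for the difference, both in the 16 libraries compared and in all 40, the latter an alternative chosen after seeing the data.

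Members and gene lists were chosen with earlier results of these data known. Named genes are, among called genes that reach 5 CPM without overlap, the 12 that rose most and the 12 that fell most, the 5 largest each way in CPM, 2 to 4 members of each list with the smallest adjusted p, any member of the Wnt target, Wnt ligand and tankyrase lists, and a fixed panel. Genes named only to spell out a small count, and Nuak2, Mcc, Dusp6, Spry4, Pfkm, Fgfr2 and Fgfr4, were chosen after their values were seen. Some genes that the rule names are not reported here. Lists are described by counts and medians, with no test of a list.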

Additional observations from a re-analysis of the deposited data

Results flagged for a closer look

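For each named gene the 4 libraries of a day were searched for one that lay apart, by Dixon's ratio of the gap to the whole range. Of 360 sets of 4, 25 stood out (6.94%). Chance gives about 1 in 20 for normally spread values, which levels of a few counts are not. A set with counts in 1 library alone has a ratio of 1.0 at any level, so the share cannot be set against 1 in 20. At day 4, 9 of the 11 values that stood out were in library 1, each the highest of its group. They were Hesx1 at 22.3 CPM, Six3 at 2.35, Apcdd1 at 16.8, Lmx1b at 65.8, Irx3 at 51.9, Cyp26a1 at 25.6, Fgfr1 at 432, Vegfa at 43.1 and Sox9 at 28.2 CPM. The other two at day 4 were Gata6 in library 3 at 0.980 CPM and Lin28b in library 4 at 236.7 CPM.

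At day 3 the 14 values were spread over all libraries. In library 2 a level of 0.0301 CPM, 1 count, was the highest for Mesp1, Six3 and Hoxa2, whose other libraries had 0, and Pfkp was highest at 237.2 CPM. In library 4 Sox1 was highest at 0.439 CPM, Cyp26a1 at 0.512 and Kdr at 0.220 CPM. In library 3 Meis2 was highest at 0.883 CPM, Pax3 at 0.183, En1 at 0.0609 and Pappa at 0.2435 CPM, and Zdbf2 was lowest at 61.5 CPM. In library 1 Gbx2 was lowest at 0.1065 CPM and Notch3 highest at 308.8 CPM.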

How the results depend on the processing

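The count of 3428 higher and 2984 lower genes was 3143 and 3308 with relative log expression scaling, 3284 and 3421 with DESeq2, 2998 and 2937 with no filter, 2481 and 2295 with a filter of 5 CPM in 4 libraries, and 2918 and 2810 in the 8 libraries alone. Leaving out a library gave 2756 to 3278 higher and 2420 to 3171 lower, and a threshold of 1 on the log2 scale 1784 and 1301. For the difference between the arms 0 genes were called in every setting run. The replicate numbers of day 3 and day 4 share only a number, with correlations of deviations from -0.0701 to 0.627, 3 of 4 day 4 libraries correlating best with their own number. With a replicate block the counts were 3412 and 3326 in the 8 libraries and 3832 and 3402 in all 40, where the block was set within an arm. With the block in the 8 libraries Wnt10b had an adjusted p of 0.0725 and Hesx1 a log2 fold change of 3.12. Of 147 named genes called, 12 lost the call in some setting and 0 changed sign. Of the named genes not called, 10 changed sign. Over the fits without 1 library their log2 values ran from -0.06 to 0.31 for Dnmt3b, -0.32 to 0.13 for Klf4, -0.55 to 0.09 for Cdx4, -0.23 to 0.51 for Sox17, -0.04 to 0.14 for Nkd2, -0.28 to 0.01 for Amotl2, -0.02 to 0.12 for Axin1, -0.0 to 0.10 for Ctnnb1, -0.13 to 0.28 for Tcf7l1 and -0.22 to 0.33 for Vegfa. Tcf7l1 was at -0.01 with relative log expression scaling, DESeq2 or the replicate block in the 8 libraries. Vegfa was at -0.03 with that scaling or DESeq2, -0.0 with no filter and -0.01 with the 5 CPM filter or the 8 libraries. The causes were not tested. Genes of few counts at day 3 give fold changes that 1 count can move, as the intervals beside them show for counting error only.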
